A study of Mus musculus with 8 samples.

Results

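The apolipoprotein L genes were described in macrophages sorted from mouse pancreas tumours, as MHCII-high and MHCII-low samples. The members were 9 mouse genes, Apol6, Apol7a, Apol7b, Apol7c, Apol7e, Apol8, Apol9a, Apol9b and Apol10b, found as the probes that carry their names on the array. There were 14 such probes among 56605 probes other than controls, for 8 of the 9 genes. None is named Apol7e, but the accessions listed for the Apol7b probe belong in RefSeq to both Apol7b and Apol7e, so its signal may come from either gene. The genes had been chosen by their MHCII-high against MHCII-low values on these arrays, so their values in that contrast are a description. The calls of the fit across all probes are counted for them only beside the share of all probes, and nothing is read from that count.

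There were 4 MHCII-high and 4 MHCII-low samples, each on 1 array of 1 colour. MHC class II (MHCII) molecules show peptides to helper T cells at the cell surface. All 8 samples came from female FvBn mice aged 8 to 10 weeks with implanted tumours, per the labels, and no genotype is provided for any of them. The design text of the series lists normal and tumour pancreas, with wild-type, KPC and FLT3-CRE/LSL-YFP as mice, and does not say which of these apply. Sorting was into lysis buffer, followed by WTA2 amplification (Sigma) of the total RNA and Cy5 labelling. Each group holds the numbers 20435, 20436, 20439 and 20442 once, and samples are named here by group and number. Whether samples of the same group are from different mice is not stated in the labels, so the spread behind each p-value is that of these samples and may be technical.

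Apolipoprotein L proteins share only the first part of their name with the apolipoproteins of blood lipid particles. They lie mostly inside the cell, carry helices that can insert in membranes, and many of their genes are induced by interferon. The human member APOL1 lyses trypanosomes, and the mouse has no direct counterpart of it. In the mouse the family grew by local duplication on chromosome 15, so that paralogues are close in sequence and a probe for one may bind the RNA of another. APOL7C is known from conventional dendritic cells, where it inserts in the membrane of phagosomes and helps antigen reach the cytosol for cross-presentation.

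The probe sequences were compared with each other, and the first 30 bases, 5′ to 3′, are printed for the pair of probes most alike. The capitals mark the bases at which the Apol9a and Apol9b probes differ.
Apol9a probe: agccCacGcccatcctcaggcatgtcatTg
Apol9b probe: agccGacAcccatcctcaggcatgtcatGg
These probes are the same at 57 of 60 bases and differ by C5G, G8A and T29G, with positions counted from the 5′ end of the probe and the Apol9a base first. No other pair of probes of different members was as alike. The next by bases in common without gaps shared 26, and the longest run in common was 14 bases, between the Apol7c probe and Apol7a probe 3. Probes were not compared with the transcripts of paralogues, so probes unlike each other may still bind the RNA of another member, which was not tested. The first 30 bases of the probes for 3 further genes are shown because the results turn on their values or their cross-matches. In the Apol10b probe the capitals mark 25 bases that also lie in the RefSeq start windows of Apol10a, Apol11a and Apol11b. The run stops there because these windows end, so whether the lower-case bases match as well was not examined. With the start window of Apol10b itself the longest shared run was 8 bases. The files place this probe from base 71 of a transcript, while the windows hold 300 bases from 250 before the start. The probe may thus lie past the end of the Apol10b window, so this run does not tell whether it matches Apol10b.
Apol7c probe: gctttaatgcctattgcaagctaaaatctg
Apol7b probe: tgtgctgagaggggagtccccaatatgttg
Apol10b probe 1: GAACCACACAGCTAAGGACAGCTGGgacac

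Of the 14 probes, 8 were well above background on all 8 arrays, 1 (Apol7c) on 5, 3 on 1 to 3 arrays and 2 on none. The 9 probes above background on at least 4 arrays, from 7 genes, entered the fit across the 41179 probes that passed this filter. In that fit (limma, Benjamini-Hochberg adjustment, 0.05), 2.71% of all probes were called higher in MHCII-high samples and 2.47% lower. The counts among the 9 were 1, the Apol7c probe, and 0. This is no test of Apol7c, which was chosen on this contrast and passed the filter through the MHCII-high arrays, with 1 MHCII-low array above background. The groups did not overlap for 3 of the 9 probes, with MHCII-high above MHCII-low in each, against 7.36% of all probes in that direction. The median log2 difference of the 9 was 0.03, beside -0.01 for all probes, and the median size of the difference was 0.29 beside 0.285. For 8 of the 9 the size was under 0.7. Levels are log2 processed signals from which the 75th percentile of the same array was subtracted, and no level of one probe is set against that of another.

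**Figure D1:**
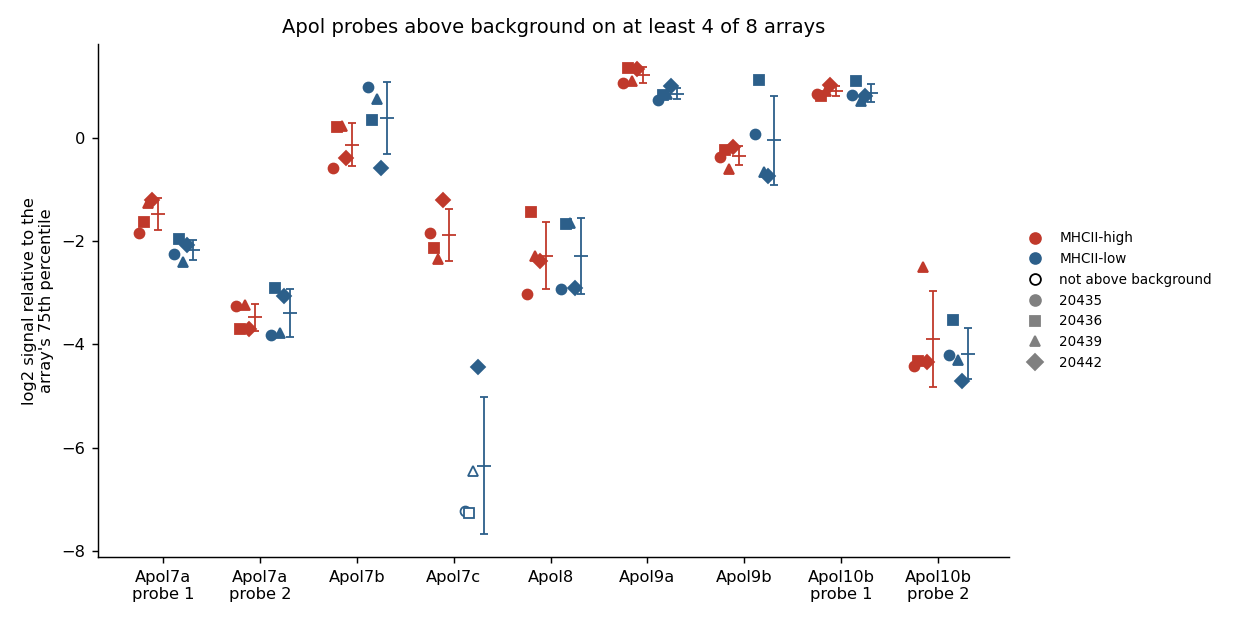
Log2 processed signal minus the 75th percentile of the array (y axis) for the 9 Apol probes above background on at least 4 arrays, with 1 point per array, colour for the MHCII group, shape for the label number, open points for signals not well above background, and bars for the mean and SD (n = 4). The groups are apart for Apol7c, Apol7a probe 1 and Apol9a, and overlap for the other probes.

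Apol7c was the member with the widest gap between the groups. Its probe lies on chromosome 15 at chr15:77355343-77355402 of mm9, minus strand. The processed signal was 933.3, 949.1, 779.7 and 1410.0 in MHCII-high 20435, 20436, 20439 and 20442. In MHCII-low the same numbers gave 26.0, 24.7, 41.2 and 147.8. All 4 MHCII-high arrays were bright, and of the MHCII-low arrays only 20442 was above background, at a level below every MHCII-high array. On the log2 scale the mean was -1.88 ± 0.50 in MHCII-high and -6.35 ± 1.33 in MHCII-low (SD, n = 4 each). The difference of these measured means was 4.47 on the log2 scale, but 3 of the 4 MHCII-low signals were not well above background. Such signals do not measure a level, so the difference is neither an exact fold nor a lower limit of it.

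With normexp background correction, which lifts dim signals, the log2 difference was 1.57. The levels under normexp ran from -1.78 to -0.88 in MHCII-high and from -3.40 to -2.47 in MHCII-low, still without overlap. The difference between samples of the same number was 5.39 for 20435, 5.14 for 20436, 4.10 for 20439 and 3.24 for 20442, so MHCII-high was above MHCII-low for each number. Row 1 of the slide, with MHCII-high 20436 beside 3 MHCII-low arrays, gave a log2 difference of 4.86. Row 2, with MHCII-low 20442 beside 3 MHCII-high arrays, gave 2.64.

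The accessions of the Apol7c probe also include that of Gm8221, a pseudogene among the Apol genes. Gm8221 has a probe of its own, and it was well above background on 1 array, MHCII-high 20436, at 139.0. Its signals were 24.2 to 79.0 on the other MHCII-high arrays and 24.5 to 27.3 on the MHCII-low arrays. How much of the signal of the Apol7c probe is Gm8221 RNA was not tested.

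Apol7a, a relative of Apol7c of less known function, has 3 probes, and they did not behave alike. For probe 1 (A_55_P1964262, chr15:77219467-77219526) the MHCII-high signals were 935.1, 1352.4, 1670.2 and 1415.6 for 20435, 20436, 20439 and 20442. The MHCII-low signals were 817.8, 989.2, 683.6 and 763.1. On the scaled log2 values all 4 MHCII-high arrays lay above all 4 MHCII-low arrays. The means were -1.48 ± 0.31 and -2.17 ± 0.20 (SD, n = 4 each), a log2 difference of 0.69 or 1.62-fold. It was 0.58 within slide row 1 and 0.64 within row 2.

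Apol7a probe 2 (A_55_P2181752, chr15:77223805-77223864) carries no RefSeq accession in the files. Its signals were 349.2, 318.9, 420.6 and 247.9 in MHCII-high and 277.0, 507.4, 264.6 and 386.3 in MHCII-low, in the same order of numbers. MHCII-high was above MHCII-low for 2 of the 4 numbers, and the log2 difference was -0.09. Probe 3 (A_51_P497724, chr15:77218745-77218804) was not well above background on any array, at 24.1 to 29.5. The gap between the groups for Apol7a is thus that of 1 of its 3 probes.

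The Apol7b probe (chr15:77252643-77252702), which also lists Apol7e, varied within both groups. The MHCII-high signals were 2246.1, 4813.5, 4653.6 and 2475.2 and the MHCII-low signals 7778.9, 4875.8, 6125.9 and 2142.9, in the order 20435, 20436, 20439 and 20442. The groups overlapped, with means of -0.13 ± 0.41 and 0.38 ± 0.70 (SD, n = 4 each) and a log2 difference of -0.51. The levels followed the slide rows as well: their mean was 0.58 in row 1, with no array under 0.21, and -0.33 in row 2, with no array above 0.23. With slide row as a block the log2 difference was -0.08, and within row 2 it was 0.34.

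Apol9a and Apol9b, interferon-induced genes with reported antiviral activity, gave different patterns although their probes differ at 3 bases. For Apol9a (chr15:77234221-77234280) the signals were 7059.3, 10685.4, 8569.3 and 8164.5 in MHCII-high and 6491.5, 6861.8, 6535.4 and 6426.7 in MHCII-low. The 4 MHCII-low arrays were close together, and all lay below the MHCII-high arrays. The means were 1.22 ± 0.15 and 0.86 ± 0.11 (SD, n = 4 each), a log2 difference of 0.36 or 1.28-fold. It was 0.55 within slide row 1 and 0.17 within row 2.

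For Apol9b (chr15:77566751-77566810, plus strand) the signals were 2605.2, 3520.6, 2630.2 and 2881.5 in MHCII-high and 4098.4, 8343.4, 2298.3 and 1929.0 in MHCII-low. The MHCII-low arrays spread widely, with 20436 highest and 20442 lowest of all 8 arrays on the scaled levels, and they enclosed the MHCII-high arrays. The means were -0.34 ± 0.19 and -0.05 ± 0.86 (SD, n = 4 each), and the log2 difference of -0.29 was smaller than the SD of the MHCII-low group. Without MHCII-low 20436 it was 0.10. The high signal of MHCII-low 20436 in the Apol9b probe had no counterpart in the Apol9a probe, where that array lay between the other MHCII-low arrays.

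Apol10b has 3 probes along its transcript, which lies on the minus strand. Probe 1 (A_66_P120380, chr15:77426425-77426484), nearest the 5′ end, lists accessions of Apol10b, Apol11a and Apol11b. Its signals were 6027.6, 7352.1, 7494.1 and 6621.8 in MHCII-high and 6957.0, 8277.6, 5944.1 and 5650.5 in MHCII-low. The arrays hardly differed, and the log2 difference was 0.03. Its pooled SD within groups, 0.14, was at percentile 4.1 of all probes tested, and that of Apol9a was at percentile 3.4.

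Apol10b probe 2 (A_66_P135956, chr15:77415509-77415568) gave 157.5, 208.2, 699.4 and 159.7 in MHCII-high and 211.1, 333.7, 182.9 and 122.4 in MHCII-low. MHCII-high 20439 stood above the other 7 arrays. The log2 difference was 0.29, but -0.17 without that array, and -0.31 within slide row 1 and 0.96 within row 2. That array did not stand apart in probe 1. Probe 3 (A_55_P2006494, chr15:77414593-77414652) was not well above background on any array, at 93.0 in MHCII-high 20436, 80.7 in MHCII-low 20436 and 22.3 to 24.4 in the other samples.

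Apol8, another gene of the cluster, had nearly equal group means and a wide spread within both groups. Its probe 1 (A_52_P536096, chr15:77580138-77580197) gave 412.2, 1536.8, 809.3 and 621.6 in MHCII-high and 512.7, 1204.7, 1152.6 and 426.9 in MHCII-low. The group means were -2.28 ± 0.65 and -2.29 ± 0.73 (SD, n = 4 each). With slide row as a block the log2 difference was 0.49, and it was 0.65 within row 1 and 0.34 within row 2, each under the pooled SD within groups, 0.69. The means of the 2 arrays of a number were -2.97 for 20435, -1.55 for 20436, -1.97 for 20439 and -2.64 for 20442. Apol8 probe 2 (A_51_P115471, chr15:77578354-77578413) was above background on 3 arrays, MHCII-high 20436 at 182.1, MHCII-low 20436 at 156.0 and MHCII-low 20439 at 252.1. These were also the 3 highest arrays of probe 1, and the other 5 arrays of probe 2 were at 24.4 to 29.2.

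Apol6, which has been linked to cell death and lies apart from the rest of the cluster, was near background. Probe 1 (A_55_P2715899, chr15:76875926-76875985, plus strand) was above it in MHCII-high 20436 at 188.4 and MHCII-low 20436 at 212.9, with 27.0 to 107.8 elsewhere. Probe 2 (A_66_P104314, chr15:76881350-76881409) was above it only in MHCII-high 20436, at 190.8, with 21.6 to 105.2 elsewhere. MHCII-low 20436, with 42086 probes well above background, and MHCII-high 20436, with 41264, were among the 3 arrays with the most such probes, and the part of this in the Apol6, Apol8 and Apol10b signals was not tested.

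**Figure D2:**
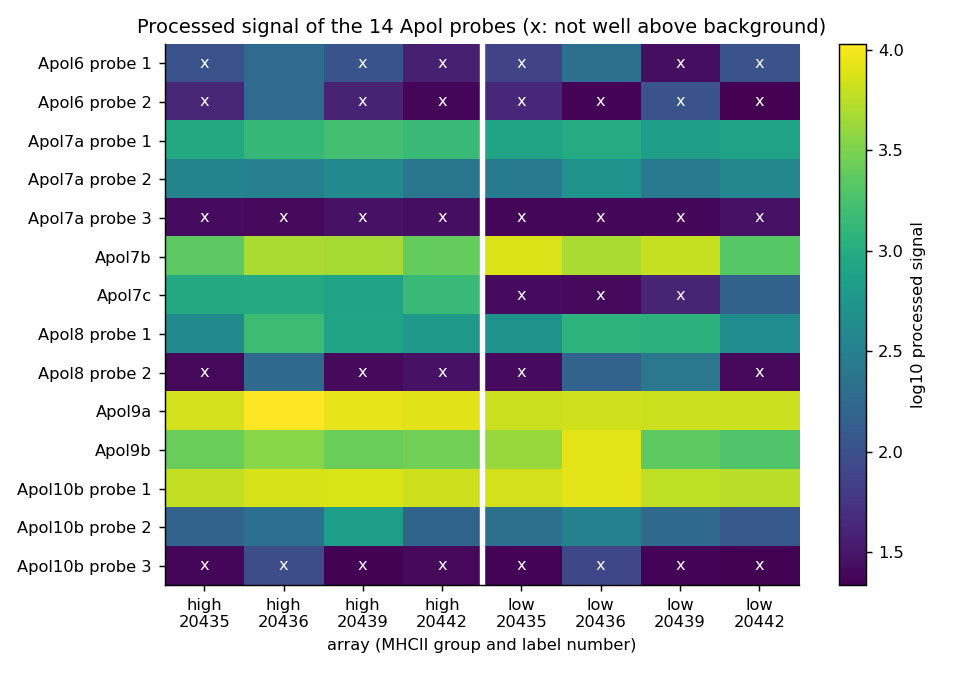
Processed signal on a log10 colour scale for the 14 Apol probes (rows) on the 8 arrays (columns, by MHCII group and label number), with x where the signal was not well above background. The Apol7c row is above background on all 4 MHCII-high arrays and on MHCII-low 20442, while both Apol6 probes, Apol8 probe 2 and Apol10b probe 3 are brightest on a 20436 array or on MHCII-low 20439.

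Slide row was not used to choose the genes, but it is uneven between the groups on which they were chosen, so its values are also a description. In the model with MHCII group and row, none of the 9 Apol probes was called by row after Benjamini-Hochberg adjustment in limma (lowest adjusted p 0.935), and 0.0121% of all probes were. At an unadjusted p under 0.05, 3 of the 9 passed, beside 5.23% of all probes. The row 2 minus row 1 log2 difference was 1.44 (SE 0.53) for Apol7c, -0.87 (SE 0.31) for Apol7b and -0.98 (SE 0.39) for Apol8. The Apol7c value leans on MHCII-low 20442 in row 2, since no MHCII-low array of row 1 was above background for its probe. Row and group are uneven on the slide, since 3 of the 4 arrays in row 1 are MHCII-low and 3 of the 4 in row 2 are MHCII-high.

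The promoters of the members fall into those with and those without an interferon-type repeat. The 300-base RefSeq windows of assembly GRCm38.p6, from 250 bases before each annotated start, were searched on both strands for GAAA, any 2 bases and a further GAAA, the core of the interferon-stimulated response element. It was found in 1131 of 32851 windows (3.44%) and in 10 of the 13 windows of Apol genes, which belong to 8 of 11 genes. Of the 8 members with a window, Apol7c, Apol7e, Apol9a, Apol9b and Apol10b held a match, and Apol7a, Apol7b and Apol8 did not. Matches can overlap each other, and these genes share sequence by duplication, so their matches are not independent. A motif of GGAA, any 2 bases and GAAA was in 2.72% of all windows and in no Apol window. The motif of TTC, any 3 bases and GAA was in 8.3% of all windows and in those of Apol10a, Apol11a and Apol11b, none of which is a member.

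The stretches with the matches are printed 5′ to 3′ along each gene, with matches on either strand in capitals, since they show the difference between Apol7b and its relatives. They are from RefSeq, GRCm38.p6, while probe positions are on mm9.
Apol7c promoter, chr15:77533336-77533395, minus strand: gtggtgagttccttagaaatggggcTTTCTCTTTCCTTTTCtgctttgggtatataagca
Apol7e promoter, chr15:77698828-77698887, plus strand: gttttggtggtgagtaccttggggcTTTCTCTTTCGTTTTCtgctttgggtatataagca
Apol7b promoter, chr15:77447461-77447516, minus strand: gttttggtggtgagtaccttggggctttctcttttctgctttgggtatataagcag
Apol9a promoter, chr15:77411105-77411164, minus strand: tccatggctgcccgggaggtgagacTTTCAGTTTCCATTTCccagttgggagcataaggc
Apol9b promoter, chr15:77729010-77729069, plus strand: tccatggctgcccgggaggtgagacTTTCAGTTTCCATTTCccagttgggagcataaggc
The Apol9a and Apol9b windows were identical over all 281 aligned bases. Those of Apol7b and Apol7e shared 293 of 295 aligned bases (99.3%), those of Apol7c and Apol7e 244 of 267 (91.4%), and those of Apol7c and Apol9b 183 of 250 (73.2%). Apol9a and Apol9b thus had the same letters over the aligned part of their windows, and how this bears on their patterns over the 8 arrays was not tested. A match is a description of the letters, and no binding was measured in these samples.

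**Figure D3:**
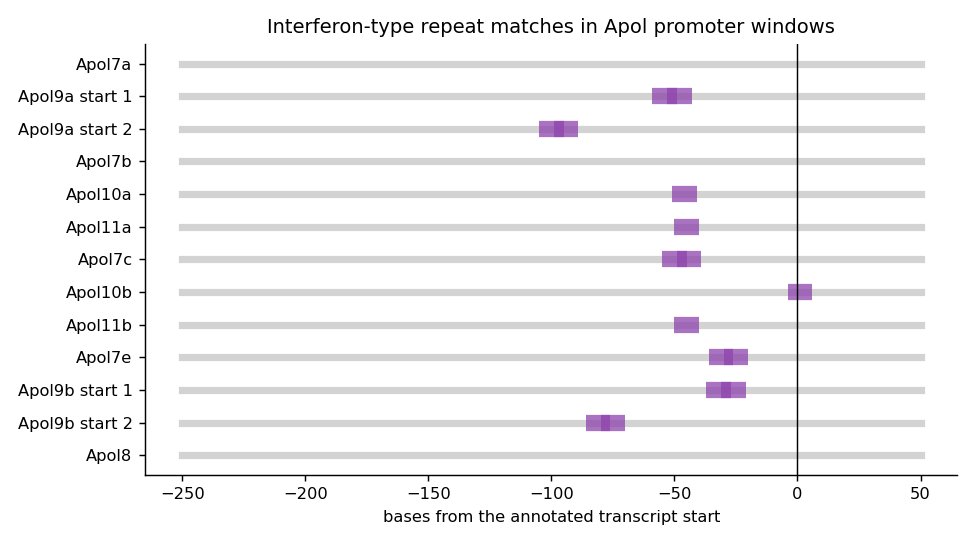
Positions of matches to the interferon-type repeat (purple) on either strand in the RefSeq promoter windows of 11 Apol genes (grey), in bases from the annotated transcript start, with 2 starts each for Apol9a and Apol9b. Matches lie before the start, except in Apol10b, where the match spans it, and the windows of Apol7a, Apol7b and Apol8 have none.

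The other genes of the interferon response were read beside the members, as a list of 32 genes. Of these, 1 rose and none fell by limma with Benjamini-Hochberg adjustment, the one being Stat2, a subunit of the transcription factor that acts on the repeat above. Its log2 difference was 0.69 (SE 0.16, limma adjusted p 0.0457) in its brighter probe and 0.42 in another. The call was lost when any 1 of the 8 arrays was left out and with slide row as a block. At an unadjusted p under 0.05 in limma, 9 of the 32 genes passed, with differences in both directions. The median log2 difference of the list was -0.15, beside -0.01 for all probes. The mean level of the list per array was 0.26 to 0.42 in MHCII-high and 0.20 to 0.83 in MHCII-low, with MHCII-low 20442 highest. MHCII-low 20442 was the lowest array for Apol9b and the only MHCII-low array above background for Apol7c.

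Dendritic cell genes were read beside Apol7c, because the gene is known from these cells. Of 24 such genes, 14 rose in MHCII-high and none fell, beside 2.71% and 2.47% of all probes. With slide row as a block 9 rose. Flt3, the receptor of a growth factor for dendritic cells, had a log2 difference of 4.46 (adjusted p 0.00214) in its brighter probe and 0.24 in another. Itgae, an integrin chain of a dendritic cell subset, was higher by 4.08 (adjusted p 0.00438), and Clec9a, a receptor for dead cells on cross-presenting dendritic cells, by 3.84 (adjusted p 0.0141), each by limma with Benjamini-Hochberg adjustment. The mean level of the list was 0.67 to 1.85 in MHCII-high and -0.79 to -0.33 in MHCII-low. Within MHCII-high, 20442 was highest for both the list (1.85) and Apol7c (-1.20). The other arrays ran in opposite order, with list means of 1.55, 1.30 and 0.67 and Apol7c levels of -2.35, -2.13 and -1.84 in 20439, 20436 and 20435. Of the markers, Xcr1 was above background on 3 MHCII-high and 1 MHCII-low arrays and did not pass the threshold.

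Genes of mature dendritic cells rose in 6 of 20 cases and fell in none. They included Ccr7, the receptor that guides these cells to lymph nodes, at a log2 difference of 3.52, and the chemokine gene Ccl22, which was above background on none of the MHCII-low arrays and at least 2.48-fold higher in MHCII-high against the lowest level above background there. Pdcd1lg2, a ligand of the checkpoint receptor PD-1, had 2.98. Mean list levels were 0.72 to 1.16 in MHCII-high and -0.34 to 0.08 in MHCII-low. Of 26 genes of cross-presentation and the phagosome, 2 rose and 2 fell, with a median of -0.06. Those that rose were Wdfy4 at 1.23 and Rab43 at 1.09, both known from cross-presentation. Those that fell were Rab27a at -1.35 and the lysosome membrane gene Lamp2 at -0.86 in its brightest probe. The other Lamp2 probes had -0.72 and, in the opposite direction, 1.09.

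Other cell types that a macrophage sort could hold were read in the same way. Macrophage genes fell in 5 of 14 cases and rose in none, among them Cd5l at -3.75, Vsig4 at -2.23 and Timd4 at -2.18, which mark resident macrophages. Their mean level was 2.18 to 2.98 in MHCII-high and 3.69 to 3.98 in MHCII-low. Of 10 B cell genes 2 rose, among them Jchain at 2.92, with list means of -0.11 to 0.66 in MHCII-high and -1.17 to -0.28 in MHCII-low. None of 13 T and NK cell, 10 neutrophil, 12 acinar or 10 fibroblast genes was called in limma after adjustment, and 1, 2, 1 and 1 of them had an unadjusted p under 0.05. Of 10 epithelial and duct genes 1 rose, Cdh1 at 1.72. Of 8 endothelial genes 1 rose, Cldn5 at 1.75, and 1 fell, Eng at -1.03. Fewer cells of a type and less RNA per cell cannot be told apart in these bulk samples, and the part of other cell types in the Apol7c signal was not tested.

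**Figure D4:**
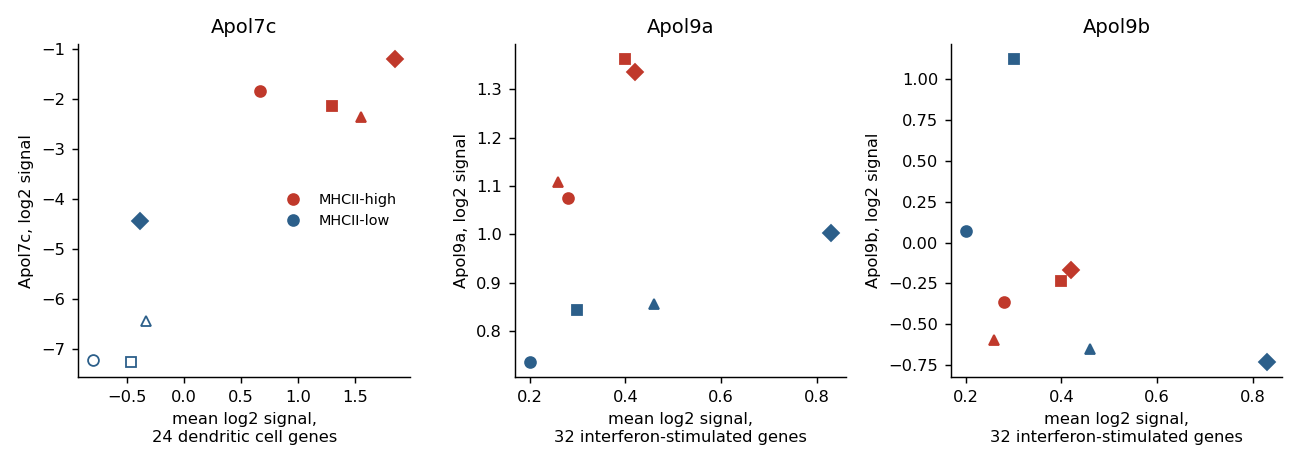
Log2 signal of Apol7c against the mean log2 signal of 24 dendritic cell genes, and of Apol9a and Apol9b against that of 32 interferon-stimulated genes, with 1 point per array, red for MHCII-high and blue for MHCII-low, shapes for label numbers, and open points where the Apol probe was not well above background. The groups lie apart on both axes for Apol7c, while the interferon-stimulated list overlaps between them and is highest, at 0.83, in MHCII-low 20442.

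The apolipoproteins of lipid particles share the name with the family but not its descent. Of 16 tested genes on a list of other apolipoprotein names, not all of them of lipid particles, 1 fell and none rose. It was Apoc1, a small protein of lipid particles that macrophages make, with a log2 difference of -2.37 (adjusted p 0.0328, limma with Benjamini-Hochberg adjustment). The median of the list was -0.22, and Apof and Apoh were not above background on any array. No gene of the list was called without MHCII-high 20439 or 20442, without MHCII-low 20439 or 20442, or with slide row as a block, and 3 were called without MHCII-high 20435.

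The genes next to the members on chromosome 15 were read beside Apol7c. RefSeq places 13 Apol genes there, with 36 other genes between them or within 250 kb. Of the 14 of these that were tested, none was called by limma after adjustment, and 1 had an unadjusted p under 0.05. This was 1700109K24Rik, with a log2 difference of -2.40 (adjusted p 0.149). Their differences ran from -2.40 to 0.32 with a median of 0.03. Myh9, the neighbour of Apol8, is among them.

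**Figure D5:**
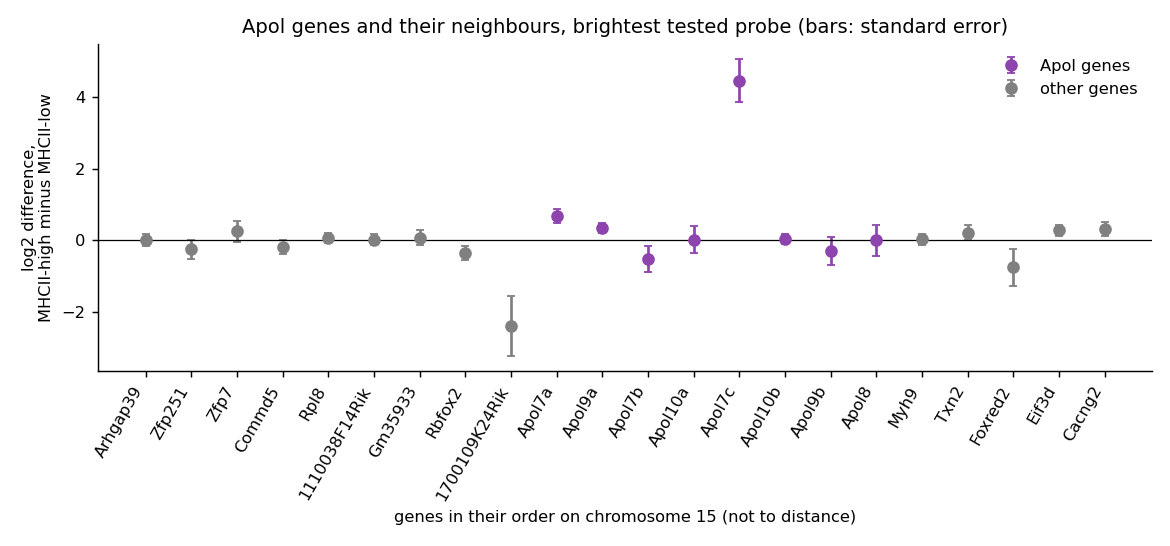
Log2 difference between MHCII-high and MHCII-low (y axis, bars for the standard error) of the brightest tested probe of each Apol gene (purple) and of the other tested genes (grey), in their order on chromosome 15, not to distance. Apol7c lies at 4.47, the other Apol genes lie between -0.51 and 0.69, and the other genes lie between -2.40 and 0.32.

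For the members above background on all 8 arrays, the probes of other genes with the nearest pattern were found by Pearson's r over the 8 arrays among about 27890 candidates, as a description. The nearest to Apol9a was Grhl2 (r = 0.987). To Apol9b it was Zc2hc1b (0.992), to Apol7a Afdn (0.988), to Apol7b Ckap2l (0.983), to Apol8 Gfm2 (0.957) and to Apol10b Pcdh1 (0.985). On deviations from the group means, Grhl2 stayed nearest to Apol9a (0.987) and Pcdh1 to Apol10b (0.987), while the others changed, to Podxl2 for Apol9b (0.995), Mlf2 for Apol7a (0.988), Pms2 for Apol7b (0.996) and Arid2 for Apol8 (0.972). These are the highest values among a very large number of candidates over 8 arrays, and the arrays share 1 slide.

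Across the whole series, 38755 to 42086 of the 56605 probes were well above background per array, and 5.18% of the probes tested differed between the groups. The sort showed in its own genes, as the class II chain gene H2-Ab1 was 3.96-fold and the class II regulator gene Ciita 8.08-fold higher in MHCII-high. Macrophage genes were above background in both groups.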

How the data were processed

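Total RNA of 8 sorted samples had been hybridised to 1-colour Agilent arrays on 1 slide, with probe positions on mm9, per the file headers. The deposited scanner files give spot intensity (processed signal, linear), and the submitters' processing notes name Agilent Feature Extraction 11.5.1.1. The deposited series table gives log2 values per probe. How the authors made it is not given in the sources used here, and it was used as an alternative. Other scanner columns used, per the file headers, were flags (well above background, outlier, saturated) and positions.

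The 67 to 160 outlier spots of an array were dropped, and none of the spots was saturated. Log2 processed signals minus the 75th percentile of their array were averaged per probe. Probes that 4 or more arrays showed well above background entered limma 3.58.1 (lmFit, eBayes; R 4.3.3) with no covariate, Benjamini-Hochberg adjustment over all probes and a threshold of 0.05. A gene of a list was read from its brightest tested probe. Promoter windows were searched in Python 3.11.15 and aligned with Biopython 1.88. The fit was tested on simulated data.

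The members and lists were chosen with earlier results of these data known. All member probes were given. Of each list the text names at most the 3 largest increases and decreases past the threshold, and 1 gene is not reported here. Gm8221, Xcr1, H2-Ab1, Ciita and the values by slide row were chosen after their values were seen. The number of arrays limits precision. Alternatives were normexp, quantile normalization, the deposited table, other filters, 1 probe a gene, label number or slide row as a block, values within a row, and leaving out each array. Label numbers were not treated as pairs, since the correlation for 20442 was 0.081, under the limit of 0.1. All the same, 8 of 8 arrays correlated best with their own number, so the main fit may leave out a real pairing.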

Additional observations from a re-analysis of the deposited data

Results flagged for a closer look

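Within groups of 4 arrays, 1 array was set apart from the rest by Dixon's ratio in 2 of 78 groups examined, and chance sets apart about 1 in 20. In MHCII-high, sample 20439 had a log2 level of -2.51 for Apol10b probe 2, against -4.41 to -4.32 in the other 3 samples, and the signal was above background. In MHCII-low, sample 20436 had -5.57 for Apol10b probe 3, against -7.42 to -7.17, but none of these signals was well above background.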

How the results depend on the processing

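Of 159 values of single Apol probes under the alternatives, 153 stayed within the pooled SD of the probe and 6 moved by more: Apol7c with normexp (1.57) and within slide row 2 (2.64), Apol9a within row 1 (0.55) and row 2 (0.17), and Apol7b (0.34) and Apol9b (0.36) within row 2. The count of Apol probes past the threshold, given as a description because the genes were chosen on this contrast, was 1, and 0 where a probe had to be above background on all 8 arrays, which removes Apol7c. With an array left out it was 1. The median over the Apol probes was -0.07 to 0.34 under the alternatives and 0.01 to 0.25 with an array left out. The 2134 probes past the threshold became 1380 with 1 probe a gene, 713 with slide row as a block, and 879 (without MHCII-high 20439) to 1774 (without MHCII-high 20435) with an array left out, and 1150 to 1261 without MHCII-high 20442 or any 1 MHCII-low array. Interferon-stimulated genes called went from 1 to 3 with normexp, 2 with the filter on all 8 arrays, and 0 with no filter, with slide row as a block and in each fit with an array left out. Dendritic cell genes went from 14 to 9 with slide row as a block and were 13 to 16 with an array left out. Other apolipoproteins went from 1 to 2 with normexp, 0 with no filter and with slide row as a block, and 0 to 3 with an array left out. The cause of these changes was not tested.

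Label numbers were not treated as pairs, because same-numbered arrays deviated together at correlations of 0.168, 0.111, 0.199 and 0.081, not all over 0.1, although 8 of 8 arrays correlated best with their own number. With the label number as a replicate block, 1265 probes passed the threshold, with 0 interferon-stimulated genes, 0 other apolipoproteins and 14 dendritic cell genes. Signals near background limit the Apol6, Apol7c, Apol8 probe 2 and Apol10b probe 3 values, and 4 arrays per group limit the rest.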

Other observations

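Of the other genes with Apol in their name, Apol11b, a member of the cluster on chromosome 15, was above background on 3 MHCII-low arrays and on no MHCII-high array. Its signals were 648.1 in MHCII-low 20436, 997.8 in 20439 and 1190.4 in 20442, while MHCII-low 20435 had 24.1 and the MHCII-high arrays 23.7 to 26.3. The mean of the MHCII-low arrays was at least 3.38-fold higher than the lowest level above background on the MHCII-high arrays. It was not tested, because it was above background on fewer than 4 arrays, and MHCII-low 20435 lay with the MHCII-high arrays. The probe of Apold1, a gene of another chromosome that is active in blood vessel cells, had a log2 difference of -1.06 with no overlap between the groups and did not pass the threshold. Apol10a and the brighter Apol7d probe differed by 0.02 and 0.01.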
